A study of Mus musculus with 192 samples.

Results

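Platelet-derived growth factor (PDGF) signalling was described through 5 genes in single cells recruited to mouse skin wounds: the ligands Pdgfa and Pdgfb, the receptors Pdgfra and Pdgfrb, and Acta2, the smooth muscle actin of contractile cells. The genes were chosen by name from the panel, and all 5 had 1 assay each among 96 assays for 95 genes. Each assay was a TaqMan quantitative PCR (qPCR) on RNA from 1 cell, and its value was read as a Ct, the cycle at which the reaction crosses its detection threshold. An earlier (lower) Ct means more template, and Ct 40 was taken as not detected. Ct values of different genes were not compared, because assays differ in efficiency.

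The cells came from dorsal wounds of recipient mice that shared their circulation with a donor whose cells carry GFP. They were sorted as lineage-negative and GFP-positive, so they were donor cells in a host that is either WT or EKO, the label for loss of CXCL12 in the endothelium. The deletion therefore lies in the host and not in the cells measured, and both groups have in common a GFP donor, joined circulation and the sort. The labels give the wound as the source of WT and EKO cells alike, while the study's design text speaks of wounding for the EKO recipients, so how the WT wounds were made is not stated. The sources used here do not give the Cre driver, the lineage antigens of the sort, the age of the mice, the time between wounding and harvest, or how many animals were used. There were 192 cells, 48 for each genotype in each of set A and set B. Within each set, the titles number the WT cells 1 to 48 and the EKO cells 49 to 96. Whether these numbers are positions is not stated, and number and genotype cannot be told apart. Since no animal is named, each genotype counted as 1 sample. Shares therefore carry exact 95% intervals that cover counting error only, and no p-value was computed.

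PDGF ligands are dimers of A or B chains that bind tyrosine kinase receptors on mesenchymal cells. The alpha receptor marks fibroblasts and their progenitors, and the beta receptor marks pericytes and vascular smooth muscle cells. Endothelial cells release the B chain, which draws mural cells to new vessels, and wound fibroblasts that start to make smooth muscle actin are called myofibroblasts. Detection of both receptors and of Acta2 in the same cell was therefore compared with a fibroblast and with a mural or myofibroblast pattern.

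The promoters of Pdgfra and Acta2 are shown because detection of Pdgfra and an early Acta2 Ct were the features that lay with the cells of high collagen expression. The RefSeq promoter table matched 3 of the 5 genes (Pdgfa, Pdgfra and Acta2). Each sequence is the 250 bases before the annotated start in GRCm38.p6, 5′ to 3′ on the gene's own strand, at chr5:75152001-75152250 (plus strand) for Pdgfra and chr19:34255374-34255623 (minus strand) for Acta2. Capitals mark CArG-like boxes, here CC, then 6 bases of which at least 5 are A or T, then GG, a definition chosen after the sequence had been read.
Pdgfra: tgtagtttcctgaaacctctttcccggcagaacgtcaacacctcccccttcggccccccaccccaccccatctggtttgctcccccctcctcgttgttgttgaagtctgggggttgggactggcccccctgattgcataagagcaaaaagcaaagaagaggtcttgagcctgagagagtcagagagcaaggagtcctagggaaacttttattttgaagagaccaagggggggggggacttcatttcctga
Acta2: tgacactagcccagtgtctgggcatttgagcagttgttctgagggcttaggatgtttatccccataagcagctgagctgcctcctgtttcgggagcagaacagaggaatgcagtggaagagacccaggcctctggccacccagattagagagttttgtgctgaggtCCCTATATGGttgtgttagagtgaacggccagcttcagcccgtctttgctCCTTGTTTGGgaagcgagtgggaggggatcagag
The Acta2 window held 2 such boxes, CCCTATATGG from 84 to 75 bases before the start and CCTTGTTTGG from 34 to 25 bases before it. CArG boxes are the element to which serum response factor binds, and Acta2 is a textbook target of that factor. The same motif was found on either strand in 8.59% of 32851 promoter windows of this length. Neither window held TATAAA (12.4% of all windows) or GGGCGG (32.7%), nor a strict CArG box with 6 A or T bases (1.47%). A match is a description of the letters and not of binding.

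Cells with 10 or more detected assays were kept, which left 170 cells, 93 WT and 77 EKO. The 22 cells left out were 3 WT and 19 EKO. Kept WT cells detected a median of 21 assays and kept EKO cells 34, so shares were also computed over the 95 cells with at least 24 assays (medians 46.5 and 45). Cells with Col1a1, a chain of type I collagen, at a Ct below 16 are called collagen-high. They numbered 46, and their Col1a1 Ct ran from 6.25 to 14.25, while the next cell outside the limit lay at 17.04. All 46 detected Col1a2 and Col3a1, and 45 detected Thy1, all of them listed as fibroblast markers. These were not confined to the class: the 124 other kept cells detected Col1a2 in 43, Col3a1 in 55 and Thy1 in 30. The pan-leukocyte marker Ptprc was detected in 31 of the 46 and in 71 of the 124 other kept cells. The macrophage marker Adgre1 was found in 0 of the 46 and the blood progenitor receptor Kit in 4, against 14 and 29 of the 124. Other blood markers went the other way, with Runx1 in 45 of the 46 and 38 of the 124, and Cd34 in 41 and 14. By at least 10 points, with a sign shared by the sets, 3 of 5 listed blood progenitor genes were higher and 1 lower. Of 5 listed leukocyte genes, 2 were higher and 1 lower. Against other cells with at least 24 assays, 0 leukocyte genes were higher and 3 lower, and the progenitor counts did not change. Collagen-high cells detected a median of 52 assays and the others 20. The number of detected assays thus moved with the class, and its part in the results was not tested.

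Across all kept cells, Pdgfra was detected in 52 of 170 (30.6%, interval 23.8 to 38.1%), Acta2 in 37 (21.8%, 15.8 to 28.7%), Pdgfa in 27 (15.9%, 10.7 to 22.3%), and Pdgfb and Pdgfrb in 23 each (13.5%, 8.77 to 19.6%). In order of shares, the intervals of neighbouring genes overlapped throughout, but that of Pdgfra did not overlap those of Pdgfa, Pdgfb or Pdgfrb. The median Ct over detecting cells was 17.11 for Pdgfa (range 13.96 to 20.66), 18.62 for Pdgfb (11.55 to 25.89), 15.68 for Pdgfra (12.85 to 26.98), 20.05 for Pdgfrb (18.26 to 26.90) and 19.04 for Acta2 (12.96 to 21.71).

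The receptors, Pdgfa and Acta2 were detected in larger shares of collagen-high cells than of the other cells, and Pdgfb was not. Pdgfra was found in every collagen-high cell and in few others, and 19 of the 23 cells with Pdgfrb were collagen-high. Acta2 was detected in both classes, but its early Ct values all lay in collagen-high cells. By a size rule of at least 10 percentage points, with a sign shared by set A and set B, 4 of the 5 genes were higher in collagen-high cells, where 60% of the 95 assays other than Col1a1 were higher and 5.26% lower. Against the 49 other cells that also had at least 24 assays, the same 4 genes were higher (42.1% of assays) and Pdgfb was lower (15.8% of assays). The members' count is thus to be read against a class in which much of the panel was higher.

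**Figure D1:**
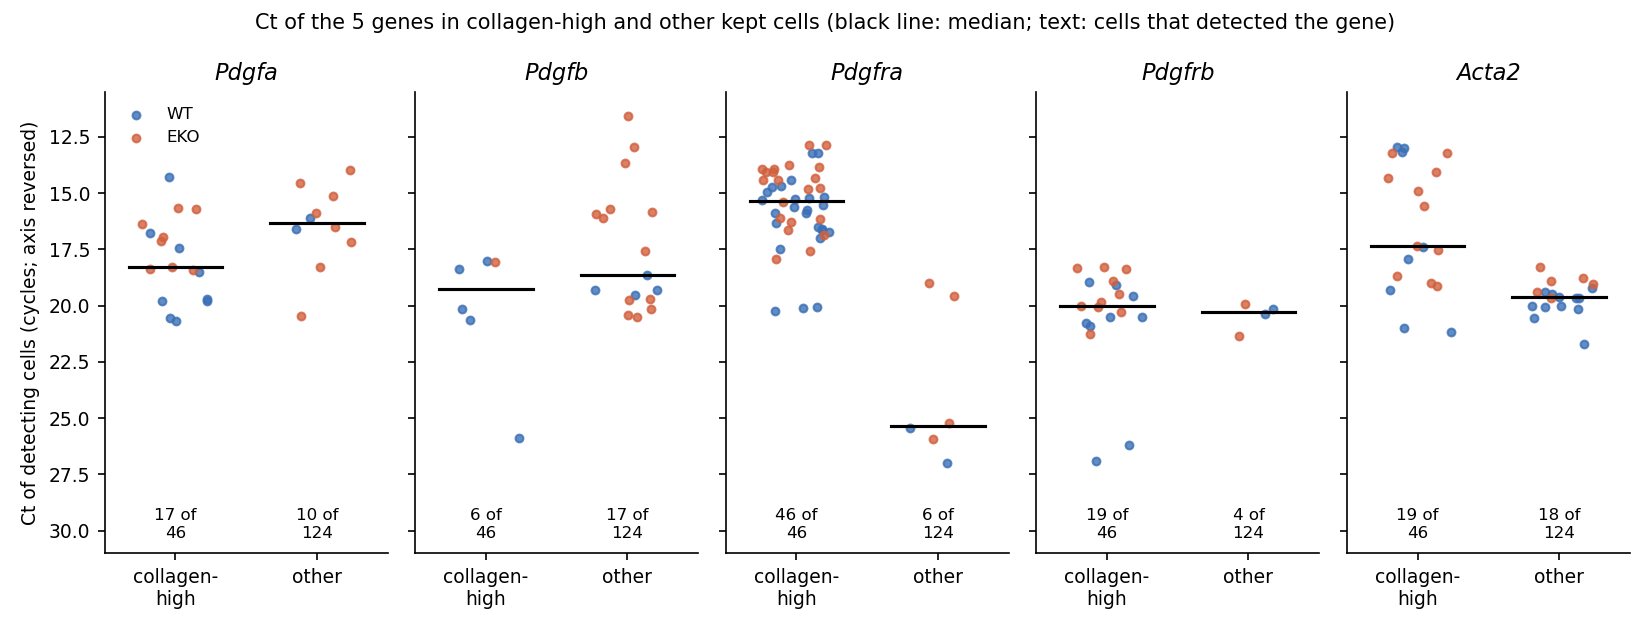
Ct of each gene in the kept cells that detected it, on a reversed axis so that more template lies higher, for collagen-high and other cells. Points are cells coloured by recipient genotype, lines are medians, and the text gives detecting cells of all cells. Pdgfra fills the collagen-high class (46 of 46) and is at Ct 18.995 or later in the 6 other cells that detected it.

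Pdgfa, which binds the alpha receptor, was detected in 17 of 46 collagen-high cells (36.96%, 23.2 to 52.5%) and in 10 of 124 others (8.06%, 3.94 to 14.3%). The classes differed by 28.9 points (set A 34.1, set B 23.8), and by 18.6 points against other cells with at least 24 assays. Its median Ct was 18.29 ± 1.85 (SD, 17 cells) in collagen-high cells and 16.32 ± 1.89 (SD, 10 cells) in the others, with overlapping ranges. Of those 10 other cells, 6 were EKO cells of set A, 2 were EKO cells of set B and 2 were WT cells of set B. The 6 EKO cells of set A each detected at least 4 of the 7 endothelial markers measured, and the other 4 cells detected 0 (median of the 10 cells 6.5).

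Pdgfb was detected in 6 of 46 collagen-high cells (13.04%, 4.94 to 26.3%) and in 17 of 124 others (13.7%, 8.19 to 21.04%), a difference of -0.67 points. Within cells of at least 24 assays the difference was -21.7 points (-24.9 in set A, -17.4 in set B), because all 17 of the other cells that detected Pdgfb had at least 24 assays (17 of 49, 34.7%). The 6 collagen-high cells lay at Ct 18, 18.07, 18.35, 20.13, 20.65 and 25.89. All 6 also detected Ptprc, and 5 of them were WT.

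Cells with Pdgfb were divided at Ct 17 into early and late ones. In 7 cells the Pdgfb Ct was 11.55, 12.96, 13.68, 15.69, 15.83, 15.91 and 16.10, and the next cell lay at 17.57. The step at the limit was narrower than that from 13.68 to 15.69 among the early cells, so it is not a gap that stands out. The limit at Ct 17 was chosen after these values had been seen. The 6 earliest were EKO cells of set A that detected 6 or 7 of the 7 endothelial markers measured (Pecam1, Cdh5, Kdr, Flt1, Tek, Tie1 and Eng). The other, at Ct 16.10, was an EKO cell of set B with 0 of these markers and 40 assays. An early Pdgfb was found in 0 of the 93 kept WT cells, and 3 counts would be 3.23%, against 7 of 77 EKO cells (9.09%, 3.73 to 17.8%).

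Outside the collagen-high class, detection of Pdgfb followed the number of endothelial markers. It was found in 4 of 82 cells with none of them (4.88%, 1.34 to 12.02%), in 5 of 34 with 1 to 3 (14.7%, 4.95 to 31.1%), and in 8 of 8 with 4 or more (63.1 to 100%). The median number of assays rose along this order too, from 17 to 32 to 54, and its part in the result was not tested. Those 8 cells each detected 6 or 7 of the markers, and 7 of them were EKO cells of set A and 1 a WT cell of set B. Pdgfa was detected in 6 of the 8, in 0 of 34 and in 4 of 82. Pdgfra and Pdgfrb were detected in 0 of the 8 (upper limit 37.5%), and Acta2 in 2 of the 8. Kit was detected in all 8 and Ptprc in 4. Among collagen-high cells, 4 detected at least 4 endothelial markers, and Pdgfb was found in 0 of these 4 and Pdgfra in 4.

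**Figure D2:**
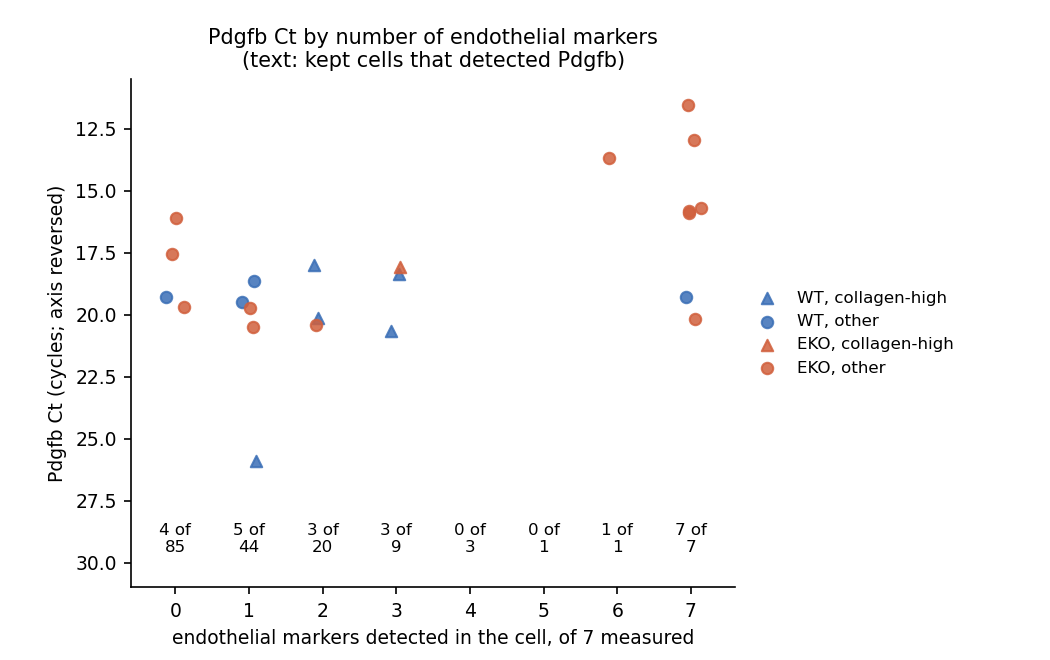
Pdgfb Ct against the number of endothelial markers, of 7, that a cell detected, for the 23 kept cells with Pdgfb. Colour is recipient genotype and shape is collagen class. The text under each column gives the cells with Pdgfb of all kept cells at that number, and all 7 cells with 7 markers detected it.

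Pdgfra, the receptor of fibroblasts, was detected in 46 of 46 collagen-high cells (92.3 to 100%) and in 6 of 124 others (4.84%, 1.80 to 10.2%). The classes differed by 95.2 points (set A 100, set B 90), and by 93.9 points against other cells with at least 24 assays. In collagen-high cells its Ct ran from 12.85 to 20.26 with a median of 15.34 ± 1.75 (SD, 46 cells). In the 6 other cells it was 18.995, 19.58, 25.22, 25.44, 25.92 and 26.98, so the ranges overlapped in a narrow band. All 6 cells were of set B, 4 of them EKO and 2 WT, and 3 had under 24 assays. Across collagen-high cells the Ct of Pdgfra and of Col1a1 had a Pearson r of 0.40 and a Spearman rho of 0.42 (46 cells). After the median Ct of each cell was subtracted from both, these were 0.24 and 0.31. The cells share 2 sets and differ in assays detected, so the values are a description.

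Pdgfrb, the receptor of pericytes and smooth muscle, was detected in 19 of 46 collagen-high cells (41.3%, 26.998 to 56.8%) and in 4 of 124 others (3.23%, 0.89 to 8.05%). The classes differed by 38.1 points (set A 47.8, set B 28.1). Its Ct had a median of 20.02 ± 2.34 (SD, 19 cells) in collagen-high cells and was 19.95, 20.16, 20.38 and 21.34 in the 4 others, which were all of set B. Over all kept cells, 20 of the 23 cells with Pdgfrb also detected Pdgfra (86.96%), and Pdgfrb was found in 20 of 52 cells with Pdgfra (38.5%) and in 3 of 118 without it (2.54%).

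Acta2 was detected in 19 of 46 collagen-high cells (41.3%, 26.998 to 56.8%) and in 18 of 124 others (14.5%, 8.84 to 21.97%). The classes differed by 26.8 points (set A 29.4, set B 24.1). Cells that detected Ptprc without high collagen held Acta2 in 11 of 71 (15.5%) at a median of 28 assays, beside 52 in collagen-high cells. Ptprc was detected in 31 of the 46 collagen-high cells too, so it does not by itself name cells that should lack Acta2. In those 71 cells Pdgfra and Pdgfrb were each found in 2 (2.82%). The 71 cells are part of the 124 without high collagen, so the nearness of their Acta2 share to the 14.5% there is partly built in. The shares of the receptors in the 71 cells were lower than that of Acta2.

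The earliest Acta2 values all lay in collagen-high cells. The class medians differed by -2.26 cycles, but by -0.11 after each cell's median Ct was subtracted. The 10 later collagen-high cells (17.35 to 21.17) overlapped the other class. In 9 cells it was 12.96, 12.98, 13.15, 13.19, 13.22, 14.07, 14.33, 14.89 and 15.58, and the next cell lay at 17.35. The limit at Ct 16 was chosen after these values had been seen. All 9 were collagen-high (9 of 46, 19.6%, 9.36 to 33.9%), against 0 of 124 in the rest of the kept cells (upper limit 2.42%, set by 3 counts). The 28 later cells had a median Ct of 19.39 and ran to 21.71, and in the 18 without high collagen the range was 18.29 to 21.71. Of the 9 early cells, 3 were WT cells of set A, 3 EKO cells of set A and 3 EKO cells of set B. Set B held 9 WT collagen-high cells and 0 with an early Acta2 (upper limit 33.3%).

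Mural markers other than Pdgfrb and Angpt1 were rare in the early Acta2 cells. Mcam was detected in 1 of the 9 and in 1 of the 37 other collagen-high cells, and Cspg4, the NG2 proteoglycan of pericytes, in 0 of the 9 and 2 of the 37. Pdgfrb was detected in 6 of the 9 and 13 of the 37. Angpt1, a ligand made by perivascular cells, was detected in 7 of the 9 and 15 of the 37, and Wnt5a, a secreted Wnt ligand, in 8 of the 9 and 13 of the 37. Ccn2, a matricellular protein linked to myofibroblasts, was detected in 4 of the 9 and 16 of the 37, and Tgfb1, the cytokine that induces them, in 9 of 9 and 34 of 37. Mki67, a proliferation marker singled out after its values were seen, was found in 3 of the 9 and 1 of the 37. The early cells had a median of 53 assays and the other collagen-high cells 51.

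Pdgfrb and Acta2 were detected together in single cells only among collagen-high cells, all of which detected Pdgfra. Of the 170 kept cells, 97 detected none of Pdgfra, Pdgfrb and Acta2, and 0 detected Pdgfrb with Acta2 in the absence of Pdgfra (upper limit 1.76%). Only cells without high collagen could have held that pair. Of these 124 cells, 4 detected Pdgfrb and 18 Acta2, so the 0 says little about whether the pair needs Pdgfra. The combination of Pdgfrb and Acta2 was found in 9 cells, all with Pdgfra and all collagen-high (9 of 46, 19.6%, 9.36 to 33.9%). The fibroblast pattern, Pdgfra without the other two, was found in 17 collagen-high cells (36.96%, 23.2 to 52.5%), Pdgfra with Pdgfrb in 10, and Pdgfra with Acta2 in 10. Cells without high collagen most often had Acta2 alone when they had any of the 3, in 18 of 27. In the 9 cells with all 3 genes, Mcam was detected in 1, Cspg4 in 0, Wnt5a in 7 and Angpt1 in 6.

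**Figure D3:**
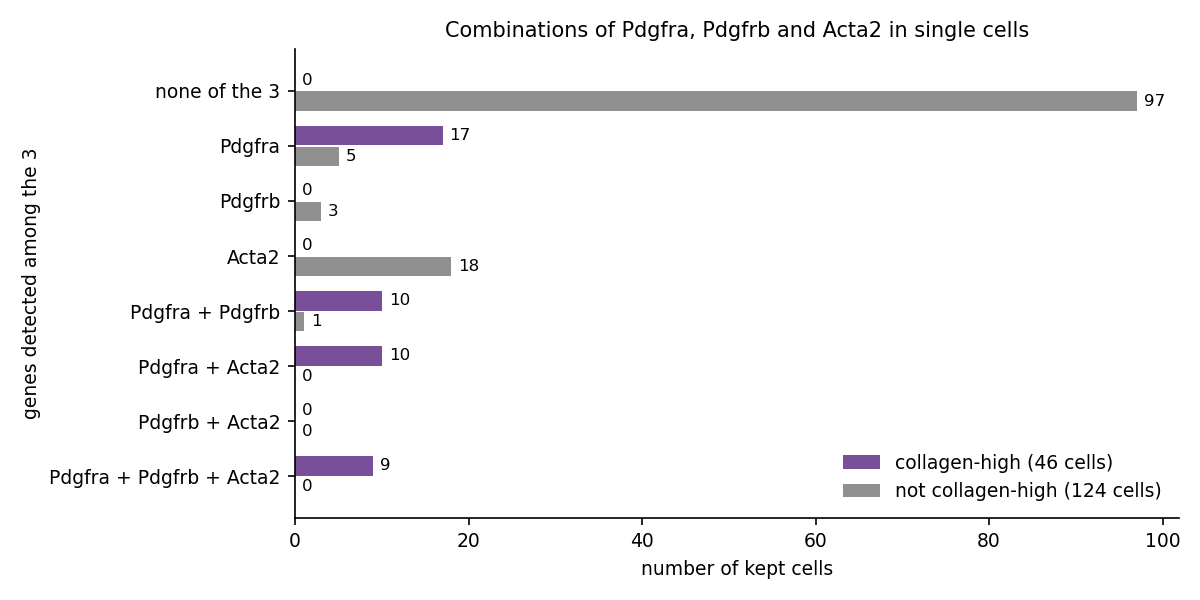
Number of kept cells with each combination of Pdgfra, Pdgfrb and Acta2, for the 46 collagen-high and the 124 other cells. Every collagen-high cell falls in a combination with Pdgfra. No cell has Pdgfrb and Acta2 without it, but only 4 of the 124 other cells detected Pdgfrb.

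The ligand Pdgfa was detected together with Pdgfrb and Acta2 in collagen-high cells and with Pdgfb in the others, a contrast between classes that was not tested. Among collagen-high cells, 11 of 17 with Pdgfa also detected Pdgfrb (64.7%, 38.3 to 85.8%), against 8 of 29 without it (27.6%, 12.7 to 47.2%), and the counts for Acta2 were the same. The difference was 37.1 points for each, where 1640 ordered pairs of 41 assays in these cells had a median of 3.61 points and quartiles of -7.00 and 13.3. Among the 49 other cells with at least 24 assays, 8 of 9 with Pdgfa also detected Pdgfb (88.9%, 51.8 to 99.7%), against 9 of 40 without it (22.5%, 10.8 to 38.5%). The difference was 66.4 points, where 3540 ordered pairs of 60 assays in these cells had a median of 11.7 points and quartiles of -2.72 and 28.05. Of the 8 cells with both ligands, 6 were among the 7 EKO cells of set A that detected 6 or 7 endothelial markers. They are not the same 6 as the earliest Pdgfb cells, since 1 of them had Pdgfb at Ct 20.15. Without the cells rich in those markers, an alternative chosen after seeing the data, the counts were 2 of 3 with Pdgfa and 7 of 38 without it. In collagen-high cells Pdgfa and Pdgfb were detected together in 1 cell.

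Pdgfb and Acta2 were not detected together in any collagen-high cell, with Acta2 in 0 of 6 cells with Pdgfb and in 19 of 40 without it (47.5%, 31.5 to 63.9%). The 0 of 6 has an interval that reaches 45.9%, which overlaps that of the other cells. Pdgfrb and Acta2 were detected together in 9 of 19 cells with Pdgfrb (47.4%, 24.5 to 71.1%) and Acta2 in 10 of 27 without it (37.04%, 19.4 to 57.6%), which differ by less than their intervals.

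**Figure D4:**
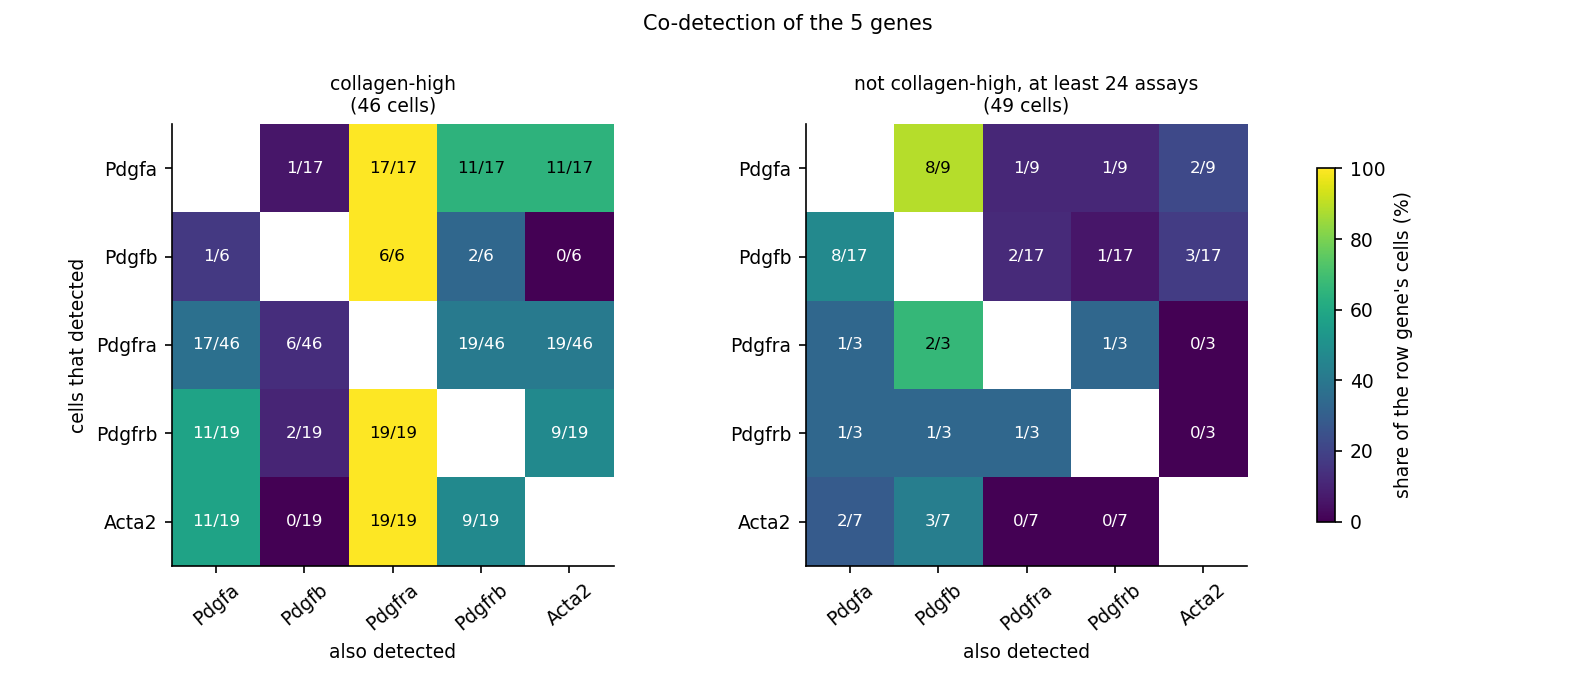
Co-detection of the 5 genes in collagen-high cells and in other cells with at least 24 assays. Rows give the gene detected, columns the gene also detected, colour the share of the row gene's cells, and text the counts. Pdgfa goes with Pdgfrb and Acta2 (11 of 17 each) in collagen-high cells and with Pdgfb (8 of 9) in the others.

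The assays most like each gene were ranked by the phi coefficient of detection over the 95 cells with at least 24 assays, among 63 other assays found in 10% to 90% of them. These cells share sets and differ in assays detected, so phi is a description. Pdgfa was most like Wnt5a (phi 0.45), Ackr3, a scavenging receptor for CXCL12 (0.44), and Timp1, a metalloproteinase inhibitor (0.39). Pdgfb was most like endothelial genes: Angpt2 (0.56, 10 of 23 cells with Pdgfb and 1 of 72 without), Nos3 (0.53, 9 of 23 and 1 of 72) and Cdh5 (0.52, 10 of 23 and 2 of 72). All 8 cells without high collagen but with at least 4 endothelial markers detected these 3 genes, and 7 of them were EKO cells of set A. Of the 16 late Pdgfb cells, 4 detected Angpt2, 3 Nos3 and 4 Cdh5, and 15 detected Ptprc and 14 Cd48. In the 49 cells without high collagen and with at least 24 assays, Ptprc was detected in 42 and Cd48 in 41. Pdgfra was most like Ackr3 (0.73; 45 of 49 and 9 of 46), Timp1 (0.69) and Vegfa (0.68), and least like Kit (-0.52; 4 of 49 and 26 of 46). Pdgfrb was most like Wnt5a (0.47; 13 of 22 and 9 of 73), Pdgfra (0.43) and Fgfr2 (0.42; 10 of 22 and 6 of 73). Acta2 was most like the Cxcl12 assay Mm00457276_m1 (0.41; 13 of 26 and 8 of 69), Wnt5a (0.39; 13 of 26 and 9 of 69) and Fgfr1 (0.36).

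Wnt5a, this Cxcl12 assay (Mm00457276_m1) and Fgfr2 were, like Pdgfrb, found mainly in collagen-high cells. Wnt5a was detected in 21 of 46 collagen-high cells and 1 of 124 others, this Cxcl12 assay in 21 and 0, and Fgfr2 in 15 and 1. The panel's other Cxcl12 assay, Mm00445552_m1, was detected in 100% of kept WT and 100% of kept EKO cells. The result is therefore that of 1 assay. Detection by the other, at 100%, could not differ between the classes, so whether the gene differed was not tested. Within the collagen-high cells, Wnt5a was found in 13 of 17 cells with Pdgfa and 8 of 29 without (phi 0.47), and Ptprc in 7 of 17 and 24 of 29 (phi -0.43). The cells with Pdgfa had a median of 53 assays and those without 51. In the same class, phi for Pdgfa was 0.16 with Ackr3 and 0.11 with Timp1. It was 0.29 for Pdgfrb with Wnt5a and 0.26 with Fgfr2. For Acta2 it was 0.38 with this Cxcl12 assay, 0.38 with Wnt5a and 0.22 with Fgfr1. For Pdgfb, detected in 6 of these cells, it was 0.42 with Angpt2 and 0.23 with Cdh5. No phi with Pdgfra could be computed there, because all collagen-high cells detected it, so its likenesses largely restate the class.

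Between recipients, none of the 5 genes met the size rule over all kept cells, where 20.8% of 96 assays were higher in EKO and 0% lower. The median over all assays was 5.70 points higher in EKO. Pdgfa was detected in 11 of 93 WT cells (11.8%, 6.05 to 20.2%) and 16 of 77 EKO cells (20.8%, 12.4 to 31.5%), a difference of 8.95 points (set A 8.49, set B 9.53). Pdgfb was detected in 9 of 93 and 14 of 77, a difference of 8.50 points, of which set A gave 15.2 and set B 1.64. Acta2 differed by 0.57 points, with 20 of 93 WT and 17 of 77 EKO cells. Without the cells that detected at least 4 endothelial markers, an alternative chosen after seeing the data, the differences were 1.81 points for Pdgfa and 1.16 for Pdgfb.

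The receptors differed between recipients in opposite directions in the 2 sets. Pdgfra was found in 16 of 48 WT and 7 of 39 EKO cells in set A, a difference of -15.4 points, and in 11 of 45 WT and 18 of 38 EKO cells in set B, a difference of 22.9 points. Over both sets the difference was 3.44 points. Pdgfra was 1 of the 6.25% of assays with opposite signs and at least 10 points in each set. Pdgfrb differed by -8.97 points within set A (8 WT and 3 EKO cells) and by 17.02 points within set B (3 WT and 9 EKO cells). The share of collagen-high cells moved with them: 16 of 48 WT cells (33.3%, 20.4 to 48.4%) and 7 of 39 EKO cells (17.9%, 7.54 to 33.5%) in set A, and 9 of 45 WT cells (20%, 9.58 to 34.6%) and 14 of 38 EKO cells (36.8%, 21.8 to 54.006%) in set B. Over both sets it was 26.9% in WT and 27.3% in EKO.

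In cells with at least 24 assays, again none of the 5 met the rule, where 4.17% of assays were higher in EKO and 11.5% lower. The differences were 6.38 points for Pdgfa, 4.99 for Pdgfb, -14.2 for Pdgfra (-38.7 in set A, 10.7 in set B), -1.17 for Pdgfrb and -2.16 for Acta2. The median over all assays was then -0.07 points.

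Within collagen-high cells, Acta2 was higher and Pdgfb lower in EKO by the size rule, which 12.5% of assays met upwards and 8.33% downwards. Acta2 was detected in 8 of 25 WT cells (32%, 14.95 to 53.5%) and 11 of 21 EKO cells (52.4%, 29.8 to 74.3%), a difference of 20.4 points (set A 40.2, set B 9.52). Pdgfb was detected in 5 of 25 WT cells (20%, 6.83 to 40.7%) and 1 of 21 EKO cells (4.76%, 0.12 to 23.8%), a difference of -15.2 points (set A -25, set B -3.97). Both pairs of intervals overlap. This restriction was chosen after the data had been seen. The early Acta2 cells were 3 of 25 WT (12%, 2.55 to 31.2%) and 6 of 21 EKO (28.6%, 11.3 to 52.2%). Pdgfrb differed by 11.6 points, with opposite signs in the sets, and Pdgfa by 2.10. The fibroblast pattern was found in 12 of 25 WT and 5 of 21 EKO collagen-high cells.

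**Figure D5:**
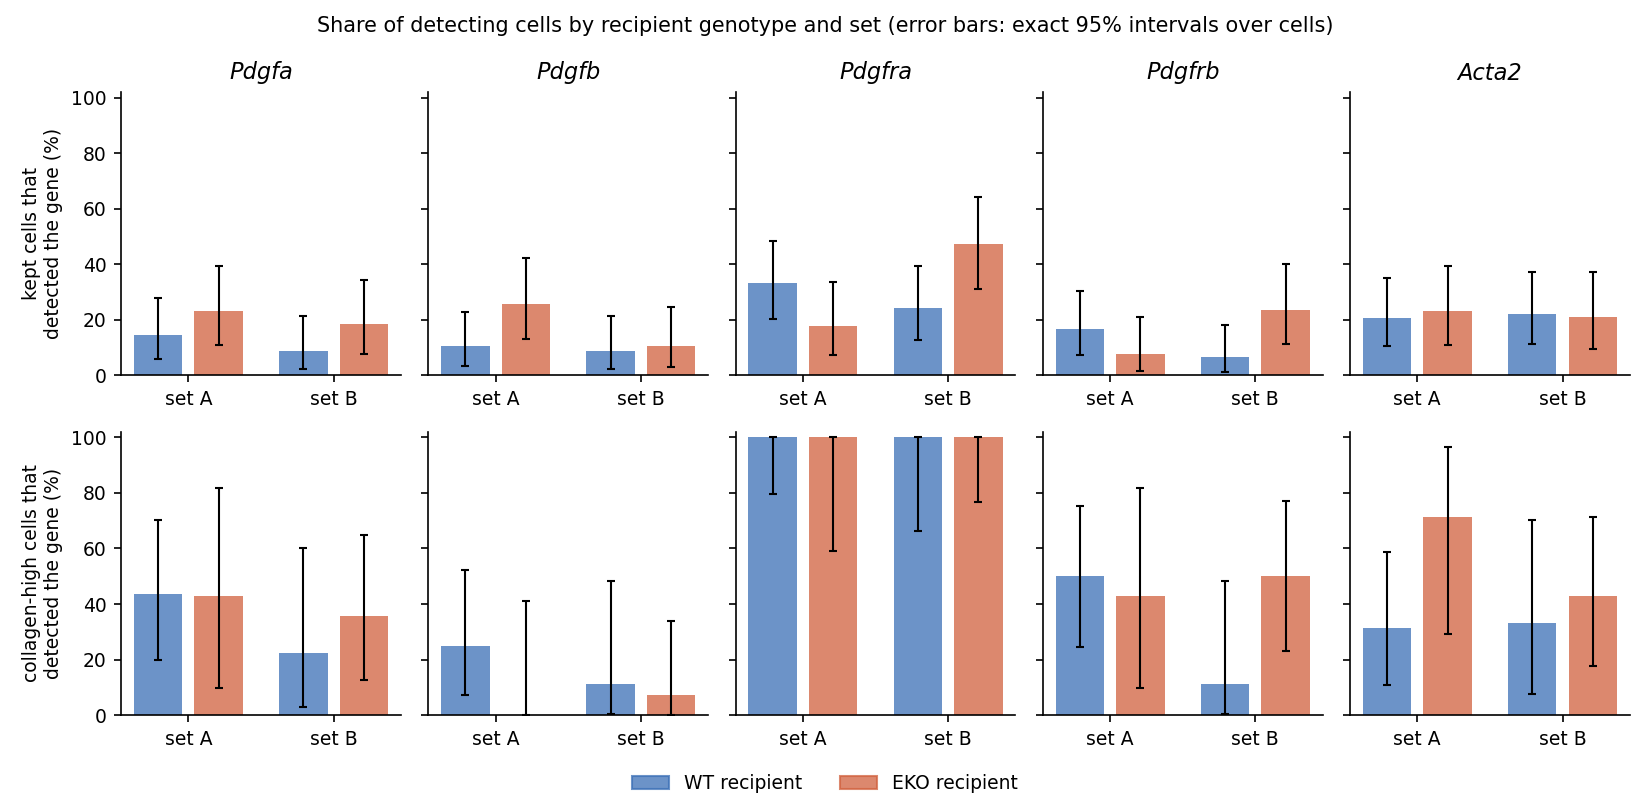
Share of kept cells (top) and of collagen-high cells (bottom) that detected each gene, by recipient genotype within sets A and B, with exact 95% intervals over cells. The order of WT and EKO for Pdgfra among kept cells turns between the sets (-15.4 and 22.9 points), and the intervals of each pair overlap.

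The Ct of Pdgfra was earlier in EKO than in WT collagen-high cells. Its median was 15.76 ± 1.84 (SD, 25 cells) in WT and 14.42 ± 1.47 (SD, 21 cells) in EKO, a difference of -1.34 cycles, smaller than the SD of either group. Set A gave -1.40 cycles and set B -0.43, and the difference was -0.47 cycles after each cell's median Ct was subtracted. The median Ct of Pdgfb over kept cells was 19.30 ± 2.37 (SD, 9 cells) in WT and 16.84 ± 2.94 (SD, 14 cells) in EKO, a difference that holds the early cells of set A. Pdgfa had 18.51 ± 2.11 (SD, 11 cells) and 16.73 ± 1.69 (SD, 16 cells), with a difference of -3.41 cycles within set A but 0.76 within set B.

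The panel held 9 of 23 listed genes of PDGF signalling and its partners. Over all kept cells 4 of the 9 were higher in EKO by the size rule and 0 lower, beside 20.8% and 0% of all assays. They included Pik3r1, a regulatory subunit of PI3 kinase (40.9% of WT and 66.2% of EKO cells), Ctnnb1, the beta-catenin gene (30.1% and 49.4%), and Myc, a growth transcription factor (34.4% and 50.6%). The list's median was 8.95 points beside 5.70 over all assays. In cells with at least 24 assays 0 of the 9 met the rule either way, and the median was 2.88 points beside -0.07. Within collagen-high cells 3 were higher in EKO, Ccnd1, the cyclin D1 gene (28% and 47.6%), Ctnnb1 (72% and 90.5%) and Myc (88% and 100%), and Pdgfb was lower, beside 12.5% and 8.33% of all assays, with a list median of 6.48 points beside 0.00 over all assays.

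Of 11 measured growth factor receptors of a second list, which does not hold the PDGF receptors, 2 were higher in EKO over kept cells, Igf1r (25.8% and 42.9%) and Notch1 (24.7% and 50.6%), a share near the 20.8% of all assays. In cells with at least 24 assays neither met the rule: Igf1r differed by 3.73 points, and Notch1 by 34.7 in set A and -5.56 in set B. There 0 of the 11 were higher and 2 lower, Fgfr2 (-12.5 points) and Tek (-12.1). Within collagen-high cells, where 12.5% of all assays were higher and 8.33% lower, 1 receptor was higher, Fgfr1 (88% and 100%), and 4 were lower: Fgfr2 (40% and 23.8%), Kdr (36% and 19.05%), Tek (48.0% and 14.3%) and Tgfbr1 (92% and 80.95%). The list's median there was 0.19 points. Each of these shares comes from 25 WT and 21 EKO cells, and none was tested.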

How the data were processed

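Lineage-negative, GFP-positive cells were measured with 96 TaqMan assays each. The authors deposited 1 table of 96 assays and 192 cells. Its unit is not named, and the values were read as raw Ct, which run up to 40. The sources used here do not give the instrument, its threshold or any preamplification. The members and gene lists were chosen with earlier results of these data known.

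Detection was a Ct below 40, and cells with at least 10 assays detected were kept. Shares were given exact Clopper-Pearson 95% intervals, and a share of 0 the limit that 3 counts allow. Both cover counting error only. Levels were the median Ct and its SD over detecting cells, with no reference gene. The labels name no animal, so each genotype was 1 sample and no test was run. Named were the 5 members, the 3 assays most like each, and listed genes that met the size rule. Set letters come from the cell titles and were treated as chips. Promoters came from a RefSeq table of GRCm38.p6. The number of cells limits the precision. Other limits for detection, assays per cell, Col1a1, set and cell class were tried. Scripts (Python 3.11.15, pandas 2.3.3, SciPy 1.17.1, statsmodels 0.14.6) were tested on simulated data. The gene lists are counted in full, and 1 gene is not reported here.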

Additional observations from a re-analysis of the deposited data

Results flagged for a closer look

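Pdgfra stood out because its difference between recipients ran in opposite directions in the 2 sets. Set A had 16 of 48 WT and 7 of 39 EKO cells with the gene, -15.4 points, and set B had 11 of 45 and 18 of 38, 22.9 points. The share of collagen-high cells turned in the same way. They were 16 of 48 WT and 7 of 39 EKO cells in set A, and 9 of 45 and 14 of 38 in set B. All collagen-high cells detected Pdgfra, so within that class the difference between recipients was 0 points. The difference between the sets was not tested, and every set has 1 sample per genotype.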

How the results depend on the processing

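Of 233 values recomputed under alternatives for 31 results, 208 moved by less than their counting interval or SD and 25 moved by more. Several of the 25 changed sign, as the values below show. Detection limits of Ct 30 and Ct 28 left every value as it was, because no member had a Ct later than 26.98. Those values could not move, and they are counted among the 208. Between recipients, the Pdgfra difference (3.44 points) was -14.2 with at least 24 assays, -15.4 and 22.9 within sets A and B, and that of Pdgfrb (3.76) was -8.97 and 17.02 in the sets. Within collagen-high cells that of Pdgfb (8.50) was -15.2 and that of Acta2 (0.57) 20.4. The Pdgfa Ct difference (-1.78 cycles) was 0.76 in set B. Between collagen classes, the Pdgfb difference (-0.67 points) was -21.7 with at least 24 assays, 14.1 in WT and -18.5 in EKO cells, and the Pdgfra difference (95.2) was 100 in set A. The Pdgfra Ct difference (-9.99 cycles) was -4.24 with at least 24 assays and -5.88 after each cell's median Ct was subtracted, and that of Acta2 (-2.26) was -0.11 after it. In co-detection, Pdgfb with Pdgfa (23.5 points) was -11.4 and Pdgfra with Pdgfa (42.9) 0.00 within collagen-high cells, and they were 7.16 and 61.2 without cells rich in endothelial markers. Pdgfra with Pdgfb (4.85) was -22.2 and Pdgfrb with Pdgfb (-0.56) -13.35 with at least 24 assays. Acta2 with Pdgfb (-10.1) was -47.5 within collagen-high cells, and Acta2 with Pdgfrb (20.1) was 47.85 and -5.87 within sets A and B. The share with the fibroblast pattern (12.9%) was 20% with at least 24 assays. The causes were not tested.

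The restrictions to collagen-high cells and to cells without 4 or more endothelial markers, and the Acta2 limit of Ct 16, were chosen after seeing the data. No replicate could be left out, with 1 sample per genotype. No paired analysis was possible because the labels give WT and EKO cells different numbers within a set and name no animal. Pairs that start from Pdgfra could not be computed within collagen-high cells, all of which detected it. A share from 21 or 25 cells has a wide interval, which limits the comparisons of recipients within that class.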

Other observations

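The 22 cells with fewer than 10 detected assays, 19 of them EKO, belong to no comparison. Acta2 was detected in 1 of them, an EKO cell of set B with 9 assays and a Ct of 19.43, and the 4 PDGF genes in 0 of 22, which allows a share of up to 13.6%.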
